A study of Homo sapiens with 6 samples.

Results

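Peaks of YAP and TAZ were examined at 6 genes known as YAP/TAZ targets whose proteins act back on the Hippo pathway: AMOTL2, AMOTL1, PTPN14, LATS2, NUAK2 and AJUBA. The genes were chosen by name, and a deposited peak was counted for a gene when it overlapped the gene's span extended by 20 kb on each side in the human genome build hg19. In kb, the spans were 134074 to 134095 on chromosome 3 for AMOTL2, 94501 to 94610 on chromosome 11 for AMOTL1 and 214522 to 214726 on chromosome 1 for PTPN14. They were 21547 to 21636 on chromosome 13 for LATS2, 205271 to 205291 on chromosome 1 for NUAK2 and 23440 to 23452 on chromosome 14 for AJUBA. AMOTL1 lies on the plus strand and the other genes on the minus strand. Exons and introns were not told apart here. This gave 454 of the 1390121 deposited peaks: the first YAP library had 122 of them, the second 112, the first TAZ library 115 and the second 105. The data came from chromatin immunoprecipitation followed by sequencing (ChIP-seq) in H1299, an established line of human lung carcinoma cells. The series held 2 libraries made with an antibody against YAP, 2 made with an antibody against TAZ and 2 input libraries made with no antibody. Cells of all 3 groups were kept without serum for 18 hours, carried no stated genetic change and received no other stated treatment. Each antibody library had its own list of peaks, called by the authors against input. Nothing in the labels tied replicates to separate cultures, so the spread between replicates may be technical. Chromatin alone was measured, so a peak here says nothing of how much of a gene's RNA the cells made.

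YAP and TAZ are coactivators without a DNA-binding domain of their own, and they reach DNA mainly through the TEAD transcription factors. When the Hippo pathway is active, the LATS kinases phosphorylate YAP and TAZ, which then stay in the cytoplasm or are degraded. Several genes switched on by YAP/TAZ encode proteins that hold them back, which closes a loop. AMOTL2 and AMOTL1 belong to the angiomotin family of junction scaffolds that bind YAP and TAZ outside the nucleus. PTPN14 is a tyrosine phosphatase that binds YAP, and LATS2 is one of the pathway's core kinases. The remaining genes sit less simply under the name of negative feedback. NUAK2, an AMPK-related kinase, and AJUBA, a LIM-domain adaptor that binds and restrains LATS kinases, are both known mainly for supporting YAP/TAZ activity.

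A deposited peak carries the authors' fold of ChIP signal over input and a −log10 q, and peaks were ranked within each list by −log10 q. The 4 lists held between 310657 and 392120 peaks on chromosomes 1 to 22 and X and covered between 13.7% and 17.4% of the span they were called on. The sequencing depth behind them is unknown, and a deeper library gives more peaks and a higher −log10 q at the same fold. Coverage in percent and folds are given as the lists hold them and are not corrected for depth. Beside them stand ranks within a list, coverage relative to the same library's chromosome, and the 20000 best-ranked peaks of each list, called strong peaks here. The peak names in all 4 lists pointed to 1 common input, whereas the list names gave another input, which differed between replicates 1 and 2, so the input behind each list is unsettled.

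The 6 loci carried peaks of every library, but few of them stood high in their lists. Of the 454 peaks, 11 were strong (2.42%), against 5.76% of all peaks on chromosomes 1 to 22 and X. Folds of 4 or more were found in 26 peaks (5.73%), against 8.09% of all peaks. LATS2 held 4 strong peaks, AMOTL2 and AMOTL1 held 3 each and NUAK2 held 1, while PTPN14, the locus with the most peaks, and AJUBA held 0. No merged region of the 6 loci was strong in more than 2 libraries. How often merged regions elsewhere are strong in several libraries was not counted, so whether this is unusual is unknown. The map of the peaks shows how they lie along the genes.

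**Figure D1:**
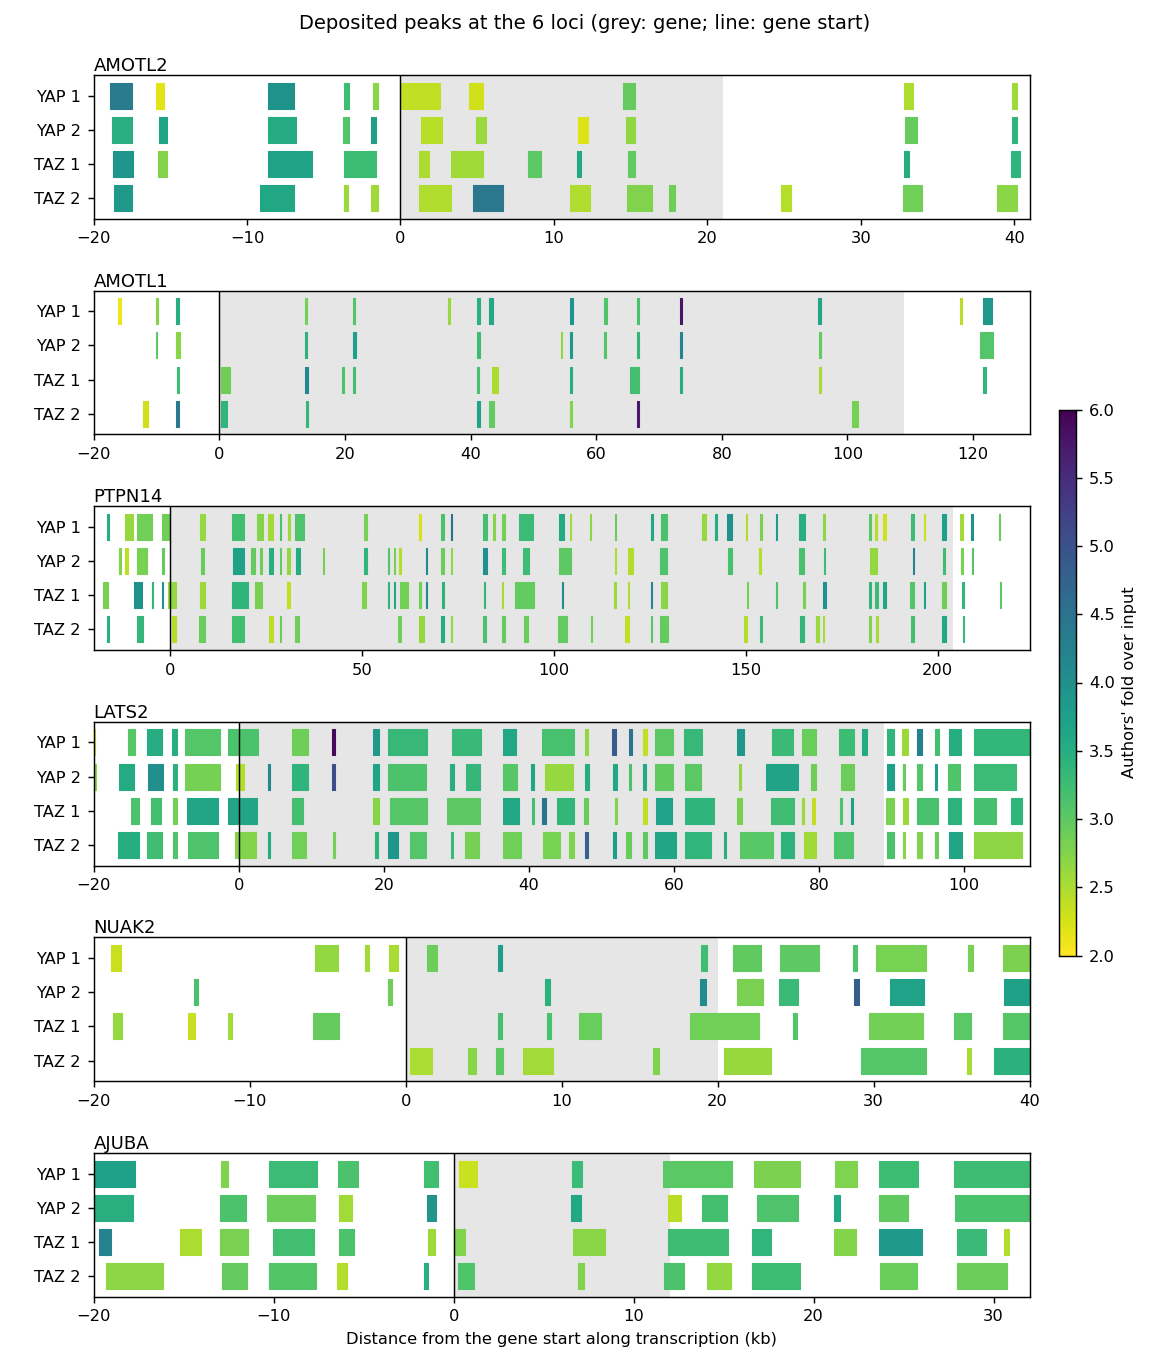
Deposited peaks of the 4 libraries at the 6 loci, by distance from the gene start in kb along the direction of transcription; each bar is a peak, coloured by the authors' fold over input, and grey marks the gene. LATS2 and AJUBA are filled densely in every library, AMOTL1 holds short, scattered peaks, and the darkest bars lie inside AMOTL1 and LATS2.

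How much of each locus lay under peaks separated the genes more clearly than the antibodies did. With 20 kb of flank on each side, LATS2 and AJUBA were the most covered loci and AMOTL1 the least. LATS2 was covered to 46.3% and 40.1% by the YAP lists and to 40.7% and 44.4% by the TAZ lists. AJUBA was covered to 43.7% and 35.9% by YAP and to 36.6% in both TAZ lists. AMOTL1 reached 4.68% and 4.09% with YAP, 4.66% and 3.51% with TAZ. LATS2 lay above AJUBA in every library, although their values overlapped between libraries, and each lay far above AMOTL1 in every library. NUAK2 was covered to 23.2% and 13.7% by YAP and to 26.5% and 23.9% by TAZ. At AMOTL2 YAP covered 15.4% and 14.3%, and TAZ 19.7% and 23.9%. At PTPN14 YAP covered 17.4% and 13.7%, and TAZ 14.3% and 11.7%. The values of NUAK2, AMOTL2 and PTPN14 overlapped over the libraries. Within each library NUAK2 lay above PTPN14, though barely in YAP replicate 2, with 13.74% against 13.69%. AMOTL2 kept no fixed order to either. Without the flanks, the LATS2 gene was covered to 41.5% and 35.7% by YAP and to 36.8% and 40.7% by TAZ. The AJUBA gene was covered to only 15.8% and 5.2% by YAP and to 20.7% and 12.8% by TAZ.

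**Figure D2:**
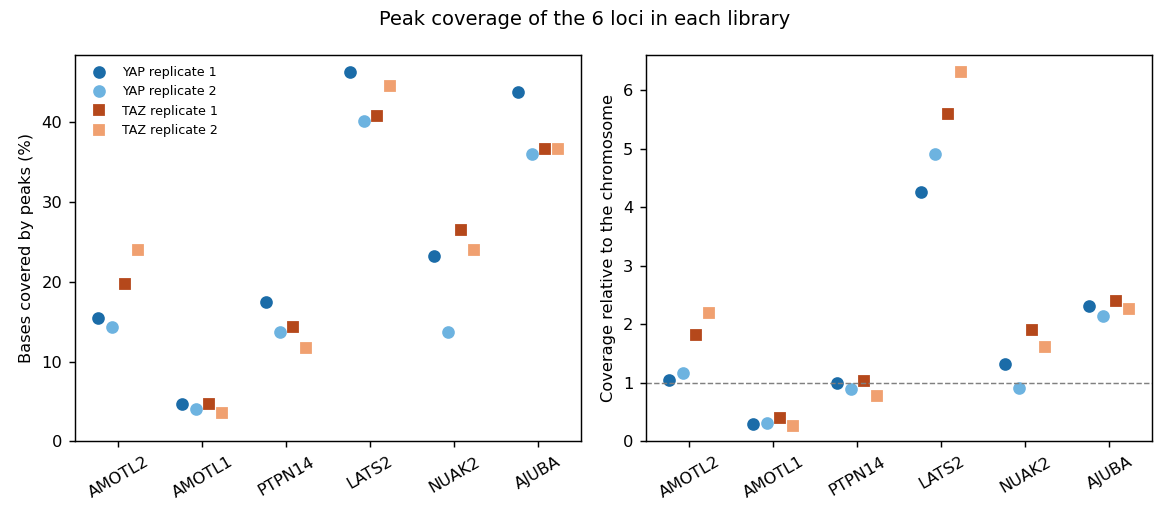
Share of each locus covered by peaks in percent (left) and the same share divided by that of the gene's chromosome in the same library (right); each point is 1 library. LATS2 stands between 4.27 and 6.31 times its chromosome and AMOTL1 between 0.272 and 0.394; both TAZ points lie above both YAP points at AMOTL2 and NUAK2.

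Set against its chromosome, LATS2 stood out further. Chromosome 13 is sparsely covered, to 10.8% and 8.17% in the YAP lists and 7.28% and 7.04% in the TAZ lists, and LATS2 had 4.27, 4.91, 5.59 and 6.31 times these shares. Among windows of the same length on chromosome 13 that held a peak of any library, only 0.540% to 1.75% were covered at least as much as LATS2, depending on the library. Over chromosomes 1 to 22 and X, this share was 8.95% to 10.9%. The 500 kb on either side of the LATS2 window were also dense, with a coverage of 25.1% to 34.2%, so the locus had 1.35 to 1.77 times the coverage of its surroundings. AJUBA had 2.15 to 2.40 times the coverage of chromosome 14 and 1.57 to 1.93 times that of its surroundings. PTPN14 was close to its chromosome, at 0.785 to 1.03 times, but the 500 kb on either side were sparse, and the locus had 2.04 to 2.83 times their coverage. AMOTL1 was below both, at 0.272 to 0.394 times its chromosome and 0.471 to 0.636 times its surroundings.

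The lists of YAP and TAZ differed in coverage at AMOTL2 and NUAK2. At AMOTL2, YAP had a mean of 14.9% ± 0.76 and TAZ one of 21.8% ± 2.96 (SD, n = 2), a difference of -6.93 percentage points for YAP minus TAZ. At NUAK2, YAP had 18.4% ± 6.65 and TAZ 25.2% ± 1.78 (SD, n = 2), a difference of -6.75. This difference was -11.5 without YAP replicate 1, -2.05 without YAP replicate 2 and -0.000833 once peaks were limited to q-values up to 0.01. At both loci both TAZ libraries lay above both YAP libraries, although the YAP lists are the longer ones. Of windows of 100 kb on chromosomes 1 to 22 and X that held a peak of any library, 4.83% had both TAZ libraries above both YAP libraries. The reverse was found in 52.7% of them and at none of the 6 loci. The loci are 52 to 244 kb long, so these windows are only roughly matched in length. In the exact two-sided permutation test, p was 0.333 at AMOTL2 and at NUAK2, the smallest value that 2 libraries against 2 allow, and the adjusted p over the 6 loci was 1 for each of them.

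Inside the genes themselves, without the flanks, the gap at NUAK2 was wider. Peaks covered 6.46% and 3.47% of the NUAK2 gene in the YAP lists and 18.3% and 23.4% in the TAZ lists, a difference of -15.9 percentage points (exact two-sided permutation p = 0.333). The AMOTL2 gene was covered to 20.2% and 15.3% by YAP and to 20.3% and 35.0% by TAZ, so TAZ replicate 1 lay barely above YAP replicate 1. Windows of 20 kb, about the length of these genes, were again taken only where they held a peak of any library. Of these, 7.52% had both TAZ libraries above both YAP libraries and 36.9% had the reverse. The TAZ peaks centred in NUAK2 were up to 1889 bp wide and had folds of at most 3.18, whereas the YAP peaks there were at most 651 bp wide and reached a fold of 4.09. When peaks needed a fold of at least 4, the difference over the whole NUAK2 locus turned to 0.583. At AMOTL2 the direction held in all 11 alternatives, although the size in percentage points ranged from -12.6 with lists shortened to the shortest to -0.405 with a fold of at least 4. With a fold of at least 4, only YAP replicate 1 and TAZ replicate 2 kept a peak at AMOTL2, 1 each, so the antibodies overlapped there. Some alternatives could not reverse the direction: leaving out a single library, as both TAZ libraries lay above both YAP libraries, and blocking by replicate number.

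The other 4 loci overlapped between antibodies. The difference of YAP minus TAZ was 2.57 percentage points at PTPN14, 3.18 at AJUBA, 0.633 at LATS2 and 0.301 at AMOTL1 (exact two-sided permutation p between 0.667 and 1). Averaged over the 6 loci, coverage was 22.7% ± 3.38 with YAP against 23.9% ± 0.19 with TAZ (SD, n = 2; exact two-sided permutation p = 1). Without YAP replicate 2, this difference of -1.17 turned to 1.23. Relative to the same library's coverage of the chromosome, both TAZ libraries also lay above both YAP libraries at LATS2. There TAZ had 5.95 ± 0.51 and YAP 4.59 ± 0.46 (SD, n = 2). On this scale 3 of 6 loci had TAZ above and 0 had YAP above, against 14.9% and 32.5% of the windows of 100 kb. With lists shortened to the shortest instead, the LATS2 difference in coverage was -1.76 percentage points and the antibodies overlapped. The plot of coverage by locus shows these gaps beside the spread of each pair of libraries.

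Single peaks gave no order of the antibodies: the YAP lists held 4 and 2 strong peaks, and the TAZ lists 0 and 5. The best-ranked peaks of the loci lay inside LATS2, in YAP replicate 1, and inside AMOTL1, in TAZ replicate 2. The LATS2 region at chr13:21622678-21623166 lies 12.8 to 13.3 kb inside the gene. Its fold was 5.90 in YAP replicate 1 and 5.06 in YAP replicate 2, it had no peak in TAZ replicate 1, and its fold was 2.86 in TAZ replicate 2. By −log10 q it ranked 683 and 3891 in the YAP lists and 222603 in the list of TAZ replicate 2. It was the only region of the 6 loci that was strong in both libraries of 1 antibody. In AMOTL1 the region at chr11:94574289-94574745, 73.3 to 73.7 kb inside the gene, was alike: its fold was 5.77 and 4.18 in the YAP lists and 3.51 in TAZ replicate 1, and TAZ replicate 2 had no peak there. Its ranks were 1943 and 31360 for YAP and 119191 for TAZ replicate 1. These regions were picked out by the rule of the highest fold in a library, so their size is a description and was not tested.

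TAZ had no such region shared by its libraries. Its best-ranked peak at the 6 loci lay in AMOTL1 at chr11:94567471-94567808, with a fold of 5.74 and rank 678 in TAZ replicate 2. There the other libraries had folds of 3.14, 3.35 and 3.20 and ranks between 160128 and 222532. In LATS2 the highest TAZ folds were 4.46, at 41.9 to 42.4 kb from the gene start in TAZ replicate 1, and 4.75, at 47.7 to 48.2 kb in TAZ replicate 2. The libraries of TAZ thus had their highest folds at different places of the same gene. Folds of 4 or more occurred in 1 library in 20 regions of the 6 loci and in 2 libraries in 3 regions. The matching shares over all merged regions were not counted. Beside the LATS2 and AMOTL1 regions above, the last of these 3 lay in PTPN14 at chr1:214658992-214659304, with 4.11 in YAP replicate 2, 4.07 in TAZ replicate 1 and no peak in the other libraries.

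Outside AMOTL2, the remaining strong peaks were each strong in 1 library. LATS2 had a peak with a fold of 4.83 in YAP replicate 1 at 51.5 to 52.1 kb, where the other folds were between 2.78 and 3.80, and the TAZ peak at 47.7 kb was also strong. AMOTL1 had a peak ahead of its start, at -6.95 to -6.32 kb, with 4.39 in TAZ replicate 2 against 3.51, 2.71 and 3.26 in the others. The single strong peak of NUAK2 lay beyond the end of the gene, at chr1:205261960-205262297, with a fold of 4.82 in YAP replicate 2, 3.12 in YAP replicate 1 and no TAZ peak. At PTPN14 the highest fold was 4.55, at 73.1 to 73.4 kb inside the gene in YAP replicate 1, with rank 26197 just outside the strong peaks.

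**Figure D3:**
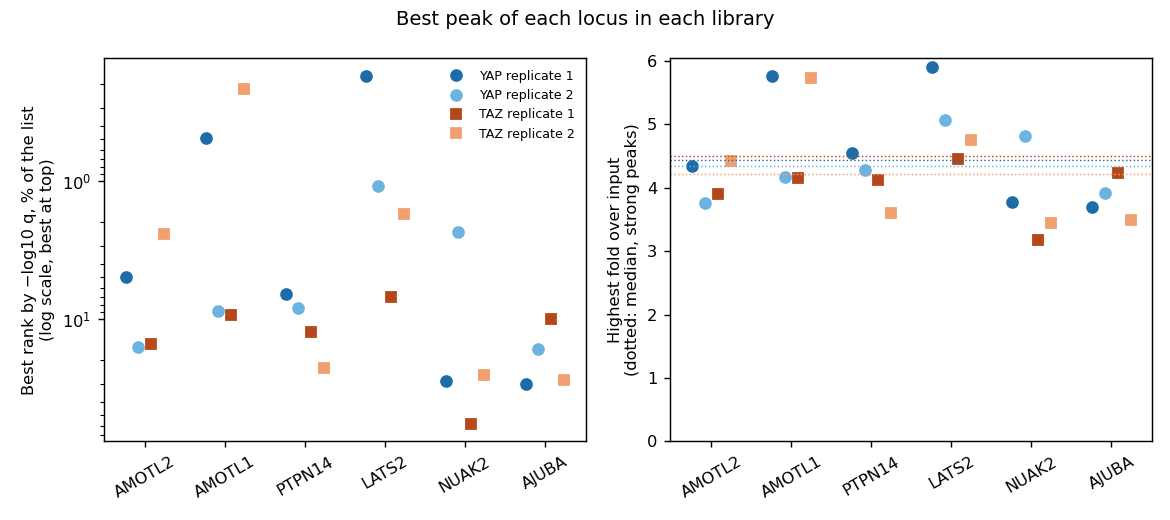
Best rank by −log10 q as a percent of the list, on a log scale with the best at the top (left), and highest fold over input (right), for each locus and library; dotted lines give the median fold of each library's strong peaks. The best ranks are those of LATS2 in YAP replicate 1, at 0.174% of its list, and of AMOTL1 in TAZ replicate 2, at 0.218%.

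AMOTL2 had the region that ranked best in all 4 libraries together. It lies at chr3:134112445-134113912, -18.9 to -17.4 kb from the gene start. Its fold was 4.35 and 3.50 in the YAP lists, and 3.91 and 3.85 in the TAZ lists. Its ranks were 19649 and 57208 for YAP and 51398 and 14598 for TAZ, so it was strong in 1 library of each antibody. No protein-coding gene other than AMOTL2 lies within 20 kb of AMOTL2 in the RefSeq table. A further region in all 4 lists lay at -9.18 to -5.79 kb, where YAP had folds of 3.96 and 3.54, and TAZ 3.68 and 3.61. These upstream regions had similar folds with both antibodies, whereas a peak inside the gene at chr3:134088351-134090287 had a fold of 4.42 in TAZ replicate 2 alone. The other libraries had folds between 2.29 and 2.60 in the merged region around it.

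The leading regions of the other loci, chosen by the same rule of the lowest rank sum over 4 libraries, had higher rank sums, although some of their single folds were higher than those at AMOTL2. In LATS2 it spanned chr13:21558977-21567380, in the later part of the gene, where YAP had folds of 3.86 and 3.69, and TAZ 3.23 and 3.42. In AMOTL1 it was a narrow region at chr11:94556796-94557237, where YAP had 3.94 and 3.83, and TAZ 3.49 and 2.74. In PTPN14 it lay close to the end of the gene, at chr1:214532025-214533299, where YAP had 3.25 and 4.27, and TAZ 3.08 and 3.19. These regions of LATS2, AMOTL1 and PTPN14 held no strong peak.

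For NUAK2 and AJUBA the leading regions lay outside the gene. The NUAK2 region at chr1:205248096-205253313 starts 37.7 kb from the gene start, beyond the end of the gene, and its folds were 2.78 and 3.71 in the YAP lists, 3.06 and 3.45 in the TAZ lists. The AJUBA region at chr14:23468165-23473530 lies at -21.5 to -16.2 kb, where YAP had 3.70 and 3.47, and TAZ 4.24 and 2.68. Of the 50 peaks at AJUBA, 22 lay downstream of the gene, 21 upstream and 7 within it. The table of genes places the protein-coding genes HAUS4 and C14orf93 within 20 kb of AJUBA, KLHDC8A within 20 kb of NUAK2 and SMYD2 within 20 kb of PTPN14. On which side of the gene they lie was not used here, and which gene a flanking peak belongs to was not tested. At PTPN14 122 of the 144 peaks lay within the gene, at LATS2 83 of 125 and at AMOTL1 36 of 48. The gene makes up 204 of the 244 kb examined at PTPN14, 89 of 129 kb at LATS2 and 109 of 149 kb at AMOTL1, so these counts roughly follow the gene's share of its window. At AJUBA the gene makes up 12 of 52 kb, and its 7 of 50 peaks were fewer than this share. In every library the AJUBA gene was also covered less than its whole window.

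At the gene starts, peaks were common, and none reached a fold of 4. The start was known to about 1 kb, and a peak within 2 kb of it was counted. Peaks of all 4 libraries were found at 4 of the 6 starts, those of AMOTL2, PTPN14, LATS2 and AJUBA, against 33.3% of all windows of 4 kb, intergenic ones included. With the starts as placed here, LATS2 was the only one of the 6 genes whose start lay under a peak in every library. There YAP had folds of 3.14 and 2.46, and TAZ 3.65 and 2.74. The placed AMOTL2 start lay under a peak in YAP replicate 1 alone. The nearest peaks of the other libraries were 1198 to 1349 bp inside that gene, which also has a more internal listed start. Whether a start of AMOTL2 lies under peaks of all 4 libraries was therefore not resolved. Within 2 kb of the AMOTL2 start the highest folds were 2.71 and 3.76 in the YAP lists, and 3.26 and 2.56 in the TAZ lists. At PTPN14 they were 2.89 and 2.95 with YAP, 3.90 and 2.44 with TAZ, and at AJUBA 3.21 and 3.92 with YAP, 2.78 and 3.50 with TAZ. In these folds, though not always in the position of the peaks, the YAP and TAZ values overlapped at each of these starts. The start window of LATS2 was covered to 85.3% and 30.8% by YAP and to 86.9% and 61.7% by TAZ. The highest fold within 2 kb of any of the 6 starts was 3.92, in YAP replicate 2 at AJUBA, and 0 of the 6 starts kept peaks of all 4 libraries with a q-value of at most 0.01.

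The starts of AMOTL1 and NUAK2 differed between libraries. The AMOTL1 span used here is 64.0% as long as the gene in the RefSeq table, so a further start outside it was not examined. At AMOTL1 both TAZ lists had a peak just inside the gene, from 0.298 to 1.77 kb with a fold of 2.89 and from 0.24 to 1.18 kb with a fold of 3.39. Neither YAP list had a peak within 2 kb, and their nearest peaks ended at -6.42 and -6.32 kb. This was the only region of the 6 loci with peaks of both TAZ libraries and of no YAP library, a class that holds 1.44% of all merged regions. At NUAK2 both YAP lists had a peak ahead of the start, at -1.09 to -0.483 kb with a fold of 2.52 and at -1.16 to -0.898 kb with a fold of 2.89. YAP replicate 1 had a further peak just inside the gene, with a fold of 2.90. No TAZ peak overlapped those ahead of the start, TAZ replicate 1 had no peak within 2 kb, and TAZ replicate 2 had a peak from 0.270 to 1.69 kb with a fold of 2.51. All of these start peaks lay under the median fold of their lists, which was between 3.03 and 3.16, except that of TAZ replicate 2 at AMOTL1.

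TEAD factors bind the letters GGAATG, so the promoters of the genes were read for them in RefSeq sequence, build GRCh38.p14, and for the AP-1 letters TGANTCA, since AP-1 often occupies DNA beside TEAD. The table held 8 promoters for the 6 genes, AMOTL2 and AJUBA having 2 each, and the 250 bases before the start were searched on both strands. GGAATG was found in 4 promoters, 1 each of AMOTL2, PTPN14, NUAK2 and AJUBA, as 5 copies in all. Of all 35116 promoters, 11.9% hold it. TGANTCA was found in 0 of the 8, against 6.57% of all promoters. The promoters with a copy are printed from 5′ to 3′ on the strand of the gene, with the copies in capitals (CATTCC is GGAATG on the other strand). All 4 genes are on the minus strand, and these coordinates are GRCh38.p14, unlike the hg19 coordinates of the peaks.
AMOTL2, chr3:134374448-134374697: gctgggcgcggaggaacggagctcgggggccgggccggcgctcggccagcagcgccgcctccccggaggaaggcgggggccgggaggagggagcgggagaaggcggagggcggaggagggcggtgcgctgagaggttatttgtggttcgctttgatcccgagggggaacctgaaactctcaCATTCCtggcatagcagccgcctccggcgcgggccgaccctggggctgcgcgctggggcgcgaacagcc
PTPN14, chr1:214551603-214551852: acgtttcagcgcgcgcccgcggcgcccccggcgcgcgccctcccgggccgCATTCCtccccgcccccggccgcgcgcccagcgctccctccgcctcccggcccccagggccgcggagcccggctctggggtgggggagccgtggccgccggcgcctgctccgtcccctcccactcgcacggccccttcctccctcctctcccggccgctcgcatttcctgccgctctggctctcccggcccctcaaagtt
NUAK2, chr1:205321746-205321995: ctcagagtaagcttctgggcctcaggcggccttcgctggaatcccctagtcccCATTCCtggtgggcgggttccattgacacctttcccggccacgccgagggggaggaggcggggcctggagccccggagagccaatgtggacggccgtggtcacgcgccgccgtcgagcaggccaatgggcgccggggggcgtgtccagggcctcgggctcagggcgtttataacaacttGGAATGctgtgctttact
AJUBA, chr14:22976843-22977092: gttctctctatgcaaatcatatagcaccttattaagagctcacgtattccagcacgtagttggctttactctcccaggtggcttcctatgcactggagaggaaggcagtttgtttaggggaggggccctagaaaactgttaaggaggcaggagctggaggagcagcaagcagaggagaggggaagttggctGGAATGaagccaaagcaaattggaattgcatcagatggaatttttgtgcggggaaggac
In NUAK2 the copies begin 197 and 18 bases before the start, in PTPN14 200, in AMOTL2 69 and in AJUBA 59. The AMOTL2 and AJUBA promoters with a copy are those of the more internal of the gene's listed starts. The GC content was 49.2% for this AJUBA promoter and 80.0% for PTPN14, against a median of 58.0% over all promoters. Of the genes with a copy, AMOTL2, PTPN14 and AJUBA had peaks within 2 kb of the start in 4 libraries, and NUAK2 in 3. Of the genes with no copy in this window, LATS2 had such peaks in 4 libraries and AMOTL1 in 2. Whether copies and start peaks go together was not tested. Since the starts are placed to about 1 kb in hg19, whether a peak covers these exact bases was not resolved. At AJUBA the outer promoter, at chr14:22982552-22982801, lies more than 2 kb from the one with a copy. The AJUBA span used here is 105.5% as long as the gene in the RefSeq table, so its start stands for the outer one. The peaks counted at the AJUBA start are therefore not peaks at the AJUBA copy.

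How far the libraries shared their peaks also differed between the loci. Peaks of the 4 libraries that overlapped by at least 1 bp merged into 143 regions, and 66 of them (46.2%) held peaks of all 4 libraries, against 39.2% of all merged regions. The share was high at LATS2, with 24 of 31 regions, at AJUBA, with 10 of 13, and at AMOTL2, with 8 of 13. It was lower at PTPN14, with 16 of 48, at AMOTL1, with 5 of 20, and at NUAK2, with 3 of 18. The highest shares were thus found at LATS2 and AJUBA, which also had the highest coverage, and the part of coverage in these shares was not tested. Regions with peaks of all 4 libraries had a median width of 2196 bp, and those of 1 library had 471 bp.

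Counted in bases, LATS2, AJUBA and AMOTL2 again came first, in this order. Of the bases under any peak, 44.6% at LATS2 and 32.7% at AJUBA lay under peaks of all 4 libraries, against 30.1% over chromosomes 1 to 22 and X. The share was 23.1% at AMOTL2, 19.9% at NUAK2, 17.5% at PTPN14 and 9.41% at AMOTL1. Regions with peaks of both YAP libraries and of no TAZ library numbered 8, with 3 at PTPN14, 2 at AMOTL1, 2 at NUAK2 and 1 at LATS2, and this class holds 6.87% of all merged regions. The only region of the reverse kind was the one at the start of AMOTL1. Regions of 1 library numbered 24 of the 143, and 7 of them were at AMOTL1; over all merged regions 22.4% are of this kind.

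Paralogs of the 6 genes, which share their ancestry but are less often named as feedback targets, were measured in the same way. These were AMOT for AMOTL1 and AMOTL2, PTPN21 for PTPN14, LATS1 for LATS2 and NUAK1 for NUAK2. LATS1, the second LATS kinase, was covered to 69.5% and 66.3% by YAP and to 60.4% and 62.9% by TAZ, above LATS2 in every library. PTPN21, with 32.5% and 31.1% in the YAP lists and 29.2% and 23.9% in the TAZ lists, was also above PTPN14 in every library. NUAK1, with 4.34% to 8.64%, and AMOT, with 0.735% to 2.58%, lay below NUAK2 and below both AMOTL genes in every library. In percent covered, both YAP libraries lay above both TAZ libraries at LATS1, PTPN21 and AMOT. Relative to the chromosome, both TAZ libraries lay above both YAP libraries at LATS1 and NUAK1, as at AMOTL2, LATS2 and NUAK2, and the antibodies overlapped at PTPN21 and AMOT. On this scale LATS2 lay above LATS1 in every library, and LATS1 had 3.84 to 4.44 times the coverage of chromosome 6. PTPN21 remained above PTPN14, with 1.47 to 1.91 times the coverage of chromosome 14. AMOT lay above AMOTL1 on this scale in YAP replicate 2, at 0.480 against 0.316 times, and below it in the other libraries.

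**Figure D4:**
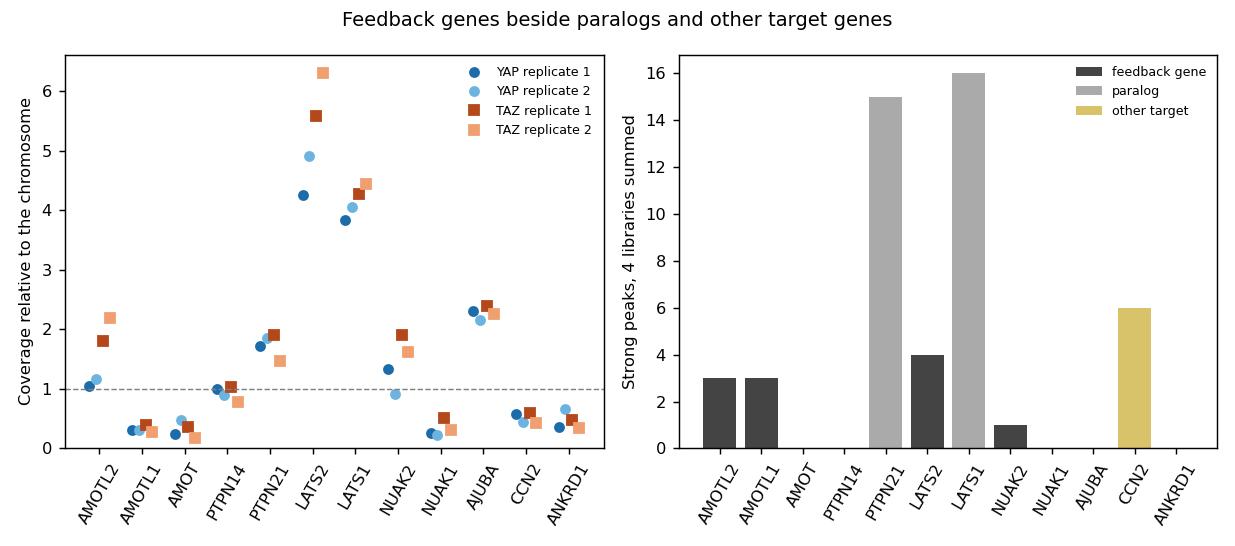
Coverage relative to the chromosome in each library (left) and strong peaks summed over 4 libraries (right) for the 6 feedback genes, 4 paralogs and 2 other target genes. LATS1 held 16 strong peaks and PTPN21 held 15, more than any of the 6 feedback genes, of which LATS2 had the most with 4.

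No common direction separated the 6 genes from their paralogs. The median coverage of the 6 minus that of the 4 paralogs was 1.17 and -3.66 percentage points with YAP, and 4.15 and 9.28 with TAZ. The mean of 2.74 was within the spread between the libraries (SD 5.42, n = 4). It turned to -8.51 when LIMD1, a paralog of AJUBA whose strand could not be checked against the tables used here, was added. Strong peaks were more frequent at the paralogs, with 31 of 270 peaks (11.5%), all of them at LATS1 and PTPN21. CCN2, a widely used YAP/TAZ target gene, was covered less than LATS2, AJUBA, AMOTL2, PTPN14 and NUAK2 in every library, at 5.96% to 10.4%, yet it held a strong peak in each of the 4 libraries. None of the 6 feedback genes did so. ANKRD1, another such target, held 0 strong peaks and was covered to 4.63% to 9.21%.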

How the data were processed

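ChIP-seq of YAP and TAZ in H1299 cells was analysed from 4 peak lists, 2 per antibody. Per the submitters' processing notes, the authors used cutadapt, Bowtie2, SAMtools and MACS2 with hg19. The sources used here give no tool versions. Each deposited list holds the broad peaks of 1 library. The deposited fold is a ratio, computed by the authors, of enrichment over input, the deposited −log10 p and −log10 q are those of the peak caller, and the deposited score was not used. The lowest deposited −log10 q lay between 1.00 and 1.02. Read totals were not used here, so depth is unknown.

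Peaks were assigned to gene spans extended by 20 kb, and coverage, ranks and overlaps (at least 1 bp) were computed with Python 3.11.15, numpy 2.4.6, pandas 2.3.3 and scipy 1.17.1, and drawn with matplotlib 3.10.9. Overlap functions were tested on simulated data. Spans of comparison genes were general knowledge of hg19, used only where length (within 10%) and strand matched RefSeq tables of another build; 4 of 5 paralogs and 2 of 3 target genes passed. YAP and TAZ were compared with exact two-sided permutation tests over 2 against 2 libraries and Benjamini-Hochberg adjustment over 6 loci. All 6 genes, the paralogs and targets are named, with each locus's region of lowest rank sum, its regions at the gene start and each library's highest fold; further regions were named after their values were seen. The genes and lists were chosen with earlier results of these data known.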

Additional observations from a re-analysis of the deposited data

How the results depend on the processing

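The YAP minus TAZ difference in mean coverage of -1.17 was 3.33 with a q-value of at most 0.01, 0.186 with a fold of at least 4, 1.61 with 50 kb on each side and -3.56 to 1.23 without single libraries. It kept its sign with lists shortened to the shortest, without flanks and relative to the chromosome. With the replicate number as a block it was again -1.17 (exact sign-flip permutation p = 1, with a smallest possible value of 0.5). With equal numbers of libraries this block leaves every difference as it was, so no sign could change under it. The list names give the same input for both antibodies at each number and the peak names give 1 input for all, so whether a number marks a pair is unsettled. Deviations of same-numbered libraries from their antibody's mean correlated at 0.262 over the 6 loci, a description only, with 2 pairs. AMOTL2 kept its sign in all 11 alternatives, but those without a single library and the block could not have changed it. With a fold of at least 4, the antibodies overlapped at AMOTL2. NUAK2 turned to 0.583 with a fold of at least 4 and was -0.000833 with a q-value of at most 0.01. With a fold of at least 4, AMOTL1 turned to -0.148 and AJUBA to -0.594. Without flanks, AMOTL1 turned to -1.29, LATS2 to -0.158 and AJUBA to -6.24, and with 50 kb AMOTL1 turned to -0.829. Relative to the chromosome, AMOTL1 turned to -0.0225, LATS2 to -1.36 and AJUBA to -0.0945. With shortened lists, PTPN14 turned to -0.945 and LATS2 to -1.76. Without single libraries, NUAK2 ranged from -11.5 to -2.05, AMOTL1 ranged from -0.272 to 0.874, LATS2 from -2.46 to 3.72 and AJUBA from -0.702 to 7.05; AMOTL1 turned without TAZ replicate 2, LATS2 without YAP replicate 1 or TAZ replicate 1, and AJUBA without YAP replicate 1.

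Regions with peaks of all 4 libraries fell from 66 to 40 with a q-value of at most 0.01, to 0 with a fold of at least 4 and to 37 without flanks, and were 69 to 78 when only 3 libraries had to share a region. The 11 strong peaks became 4 with 5000 strong peaks per library, 28 with 50000, 18 when ranked by fold, 7 without flanks and 21 with 50 kb. The 4 gene starts with peaks of all 4 libraries became 2 within 1 kb, 0 with a q-value of at most 0.01 and 0 with a fold of at least 4. Members minus paralogs, 2.74, turned to -0.640 with a q-value of at most 0.01, -0.613 with a fold of at least 4, -3.10 without flanks and -8.51 with LIMD1, an alternative added after seeing the data; it was 0.554 to 4.87 without single libraries. The cause of these changes was not tested, except that stricter thresholds and narrower windows leave fewer peaks by construction. Unknown depth and 2 libraries per antibody limit every comparison.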
